A study of Homo sapiens with 4 samples.

Results

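Potassium channel genes were followed in U251-MG, an established human glioblastoma line, by taking every gene of the count table whose symbol starts with KCN, continues in letters and ends in a number. The rule found 95 genes among the 61806 of the table, and it used no measured value. The 4 libraries came from cells infected with lentivirus made from the pCDH-CMV-MCS-EF1-puro plasmid, which carries a puromycin resistance gene. In 2 of them the vector held the COL8A1 coding sequence, a chain of the short-chain collagen VIII, and in the other 2 it was the negative control (NC). All cells were labelled wild type and grown in DMEM with serum, and the labels mention neither a clone nor separate cultures, so the p-values reflect the spread of the libraries alone and that spread may be technical.

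The libraries held 27923796 to 33576228 counts. COL8A1 itself stood at 2.51 and 2.43 CPM (counts scaled to library size) in NC replicates 1 and 2 and at 134.9 and 81.3 CPM in COL8A1 replicates 1 and 2, in the direction of the labels. That 43.8-fold difference had an edgeR adjusted p of 0.0681 and a DESeq2 adjusted p of 6.25e-72. All 10 markers of glioma cells and astrocytes passed the low-count filter, although GFAP, the astrocyte filament gene, was at 0.563 to 2.04 CPM. The 5 microglia markers summed to at most 0.424 CPM and the 5 oligodendrocyte markers to at most 0.54 CPM, while MOG, MAG, AIF1 and P2RY12 had 0 reads. Of the 6 neuronal markers SYT1 and STMN2 were at 21.2 CPM or more in every library. CDH5, of the 5 endothelial markers, was at 60.1 to 78.2 CPM. The other neuronal and endothelial markers were lower. RBFOX3, SNAP25, SLC17A7 and CLDN5 had at most 9 counts in any library, and PECAM1 had 5 to 16. VWF was at 0.503 to 1.27 CPM, KDR at 0.597 to 1.37 CPM and GAD1 at 5.61 to 8.05 CPM.

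Potassium channels let potassium leave or enter the cell along its gradient and thereby set the membrane potential, cell volume and, in excitable cells, the shape of the action potential. Voltage-gated channels open on depolarisation, and calcium-activated channels open when cytosolic calcium rises. Inward rectifiers pass potassium more easily into the cell than out of it, and tandem-pore (K2P) channels carry a background leak. Auxiliary subunits hold no pore and adjust the gating or trafficking of the channels they bind. Glioma cells are known for calcium-activated potassium channels, which have been linked to their volume changes and migration, and healthy astrocytes for inward rectifiers that clear potassium from the extracellular space.

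Pore-forming subunits share a short selectivity filter. In most of them threonine and 1 further residue are followed by glycine, tyrosine or phenylalanine, and glycine. Its coding stretch is shown for channels among those with the highest counts here, because it is the feature that makes these otherwise unlike genes members of a single superfamily. The sequences are coding strands of GENCODE release 29 transcripts, with the codons for glycine, tyrosine or phenylalanine, and glycine in capitals.
KCNN4: ttcctgaccatcGGCTATGGTgacgtggtg
KCNS3: atgacaactgtgGGCTATGGAgacacccac
KCNJ2: cagacaaccataGGCTATGGTttcagatgt
KCNQ5: ttgacaactattGGCTATGGAgacaaaact
KCNMA1: atgtccaccgttGGTTATGGGgatgtttat
KCNK2, first pore: attacaaccataGGATTTGGAaacatctca
KCNK2, second pore: ctaacaactattGGATTTGGTgactacgtt
In GRCh38 these stretches lie in coding exons. That of KCNN4 is at chr19:43772048-43772077 (minus strand), that of KCNS3 at chr2:17932110-17932139 (plus) and that of KCNJ2 at chr17:70175457-70175486 (plus). The KCNQ5 stretch is at chr6:73105263-73105292 (plus), the KCNMA1 stretch at chr10:77110227-77110256 (minus) and the second of KCNK2 at chr1:215172150-215172179 (plus), while the first of KCNK2 crosses an exon junction. The leak channel KCNK2 has phenylalanine codons in both pores, where the other 5 genes shown have a tyrosine codon. The search was made in frame on the coding strand for ACNNNNGGNTATGGN, ACNNNNGGNTACGGN, ACNNNNGGNTTTGGN and ACNNNNGGNTTCGGN, which do not overlap. It matched 68 of the 79 pore-forming and modulatory KCN genes, 0 of the 16 auxiliary genes and 1.21% of all 19599 genes with a complete coding transcript. The search finds this form of the filter only, so a pore gene without a match, such as KCNH2, may hold another form.

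Most channel genes had few or no reads in this line. Of the 95, 34 had 0 reads in all 4 libraries, where 3 counts, the limit that a count of 0 allows for counting error alone, correspond to 0.0889 to 0.108 CPM. A further 28 had reads but were too low for the filter, with at most 21 counts in any library, and 33 were tested. Of these, 20 were at 1 CPM or more in every library. The summed level of all KCN genes was 215 and 206 CPM in NC replicates 1 and 2 and 226 and 240 CPM in COL8A1 replicates 1 and 2. The COL8A1 libraries were both above the NC libraries, but 2 against 2 libraries cannot reach an exact two-sided permutation p below 0.333.

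**Figure D1:**
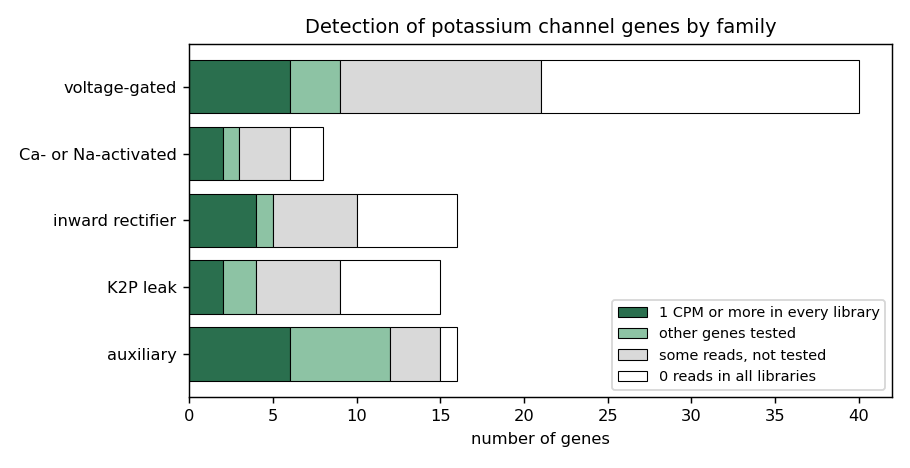
Number of KCN genes (horizontal axis) in each family, split by detection over the 4 libraries; dark green is 1 CPM or more in every library, light green the other genes tested, grey genes with some reads that were not tested, white genes with 0 reads. The voltage-gated family has the most genes with 0 reads (19 of 40), and the auxiliary family has 12 of 16 genes tested.

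Detection differed by family. Of 40 voltage-gated genes, counting the modulatory subunits that hold a pore sequence but need a partner, 9 were tested and 19 had 0 reads. The Shaker-type KCNA genes had almost no reads: 7 of 8 had 0 reads, and KCNA3 had 4 reads in COL8A1 replicate 2 alone. KCNQ3, which helps carry the neuronal M-current, also had 0 reads in every library. In the other families, 3 of 8 calcium- or sodium-activated genes, 5 of 16 inward rectifiers, 4 of 15 leak channels and 12 of 16 auxiliary genes were tested.

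In the test across all genes, no KCN gene passed the threshold between the vectors. In these bulk libraries fewer cells with a transcript and less transcript per cell cannot be told apart. By edgeR's quasi-likelihood test with Benjamini-Hochberg adjustment over 17030 genes, 0 of the 33 passed an adjusted p of 0.05 (smallest 0.747), against 0.0117% of all genes tested. With DESeq2 0 passed as well (smallest adjusted p 0.484), against 1.06% of all genes. At an unadjusted edgeR p under 0.05, 2 genes, KCNJ2 among them, had higher values with the COL8A1 vector (3.44% of all genes) and 0 had lower values (2.63% of all genes). These are 6.06% of the 33, and the same count over all genes was 6.07%. The 2 groups did not overlap in CPM for 13 of the 33 (39.4%), against 37.5% of all genes tested. COL8A1 was higher in 9 (18.9% of all genes) and lower in 4 (18.6% of all genes). The shares without regard to direction lay near their background. Among genes without overlap, the share of the 33 that was higher lay above its background and the share that was lower lay below it. Whether these shares differ from background was not tested. Without a low-count filter 7 of the 61 KCN genes with any read had an unadjusted edgeR p under 0.05. That was a larger share than the 4.3% of all genes, and 4 of the 7 had at most 21 counts in any library.

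The log2 fold changes of the 33 (COL8A1 over NC) ran from −1.66 to 1.37 with 19 above and 14 below 0, and 50.2% of all genes were above 0. Their median was 0.18, beside 0.0011 over all genes. With a library left out the filter was run anew, so the genes in the median changed too. The median was then −0.085 without COL8A1 replicate 2 and 0.083 without COL8A1 replicate 1. How much of this shift comes from the library and how much from the changed genes was not tested. Over the 33, the median by family was 0.31 for voltage-gated genes, 0.20 for inward rectifiers and 0.24 for auxiliary genes. It was −0.14 for calcium- or sodium-activated genes and −0.29 for leak channels, with 3 to 12 genes in each family. The value of −0.14 is that of KCNT2, which had 7 to 16 counts per library. The summed CPM of its family was 74.8 and 72.4 in NC and 80.1 and 76.5 with the COL8A1 vector. A filter on low counts keeps a gene if it is high in either group, so the 33 do not stand for all 95.

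**Figure D2:**
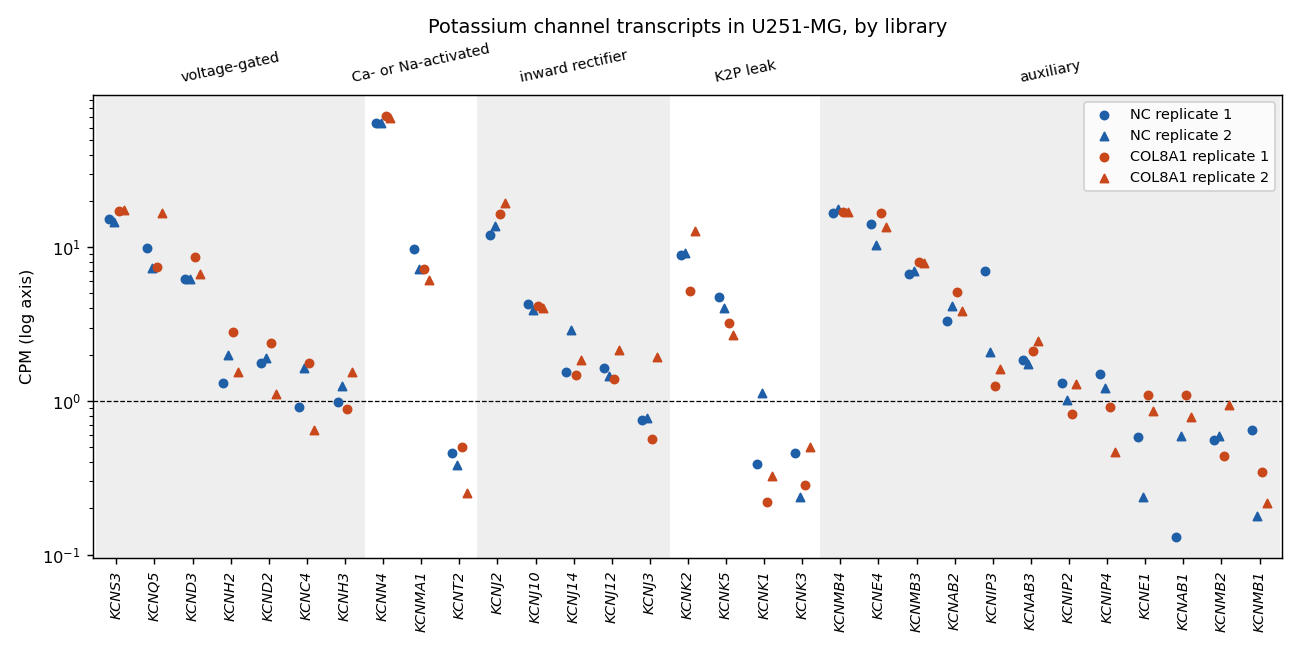
CPM (log axis) of 31 of the 33 KCN genes tested, grouped by family, with NC libraries in blue, COL8A1 libraries in orange, circles for replicate 1 and triangles for replicate 2; the dashed line is 1 CPM. CPM are not scaled to gene length. KCNN4 stands above all others at 64.4 to 71.8 CPM, and replicates of KCNQ5, KCNK2 and KCNIP3 lie far apart.

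Calcium-activated channels were led by KCNN4 (ENSG00000104783; chromosome 19, 43766533 to 43781261, minus strand, GRCh38), the intermediate-conductance channel that calmodulin opens when calcium rises. It was at 64.4 and 64.7 CPM in NC replicates 1 and 2 and at 71.8 and 69.7 CPM in COL8A1 replicates 1 and 2. Both COL8A1 libraries were above both NC libraries, by a small margin. The group means were 64.5 ± 0.194 and 70.7 ± 1.44 CPM (SD, n = 2 each), with a log2 fold change of 0.13 (SE 0.078, edgeR adjusted p = 0.835). KCNN4 alone took 29.1% to 31.7% of the summed KCN CPM of a library. Per kilobase of exon it stood at 19.8 CPM, above 85.6% of the 16631 tested genes with a length.

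KCNMA1, the pore of the large-conductance BK channel, which voltage and calcium open together, was at 9.71 and 7.17 CPM in NC and 7.26 and 6.08 CPM with the COL8A1 vector. The groups overlapped (edgeR log2 fold change −0.34, SE 0.229, adjusted p = 0.852), with −0.11 without NC replicate 1 and −0.54 without NC replicate 2. Its auxiliary subunit KCNMB4 was at 16.6 and 17.7 CPM in NC and 17.0 and 16.8 CPM with the COL8A1 vector, with the groups overlapping (edgeR log2 fold change −0.017, SE 0.114, adjusted p = 0.989). Per kilobase of exon, the level of KCNMB4 was 3.50 CPM and that of KCNMA1 0.212 CPM. KCNMA1 has many alternative exons, and over its longest coding transcript its level was 0.626 CPM, still below the 3.6 CPM of KCNMB4 on that scale. The sodium-activated KCNT2 had 7 to 16 counts per library, and the small-conductance KCNN1, below the filter, had 4 to 14.

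Among voltage-gated genes KCNS3, a modulatory subunit that forms no channel alone, was at 15.3 and 14.6 CPM in NC and 17.2 and 17.5 CPM with the COL8A1 vector. The groups did not overlap, but the difference was small (edgeR log2 fold change 0.21, SE 0.114, adjusted p = 0.835). KCNQ5, an M-current subunit, was at 9.84 and 7.35 CPM in NC and 7.42 and 16.7 CPM with the COL8A1 vector. A single library, COL8A1 replicate 2, was high, and the other 3 lay close together. The log2 fold change was 0.49 (SE 0.428, edgeR adjusted p = 0.874) and −0.22 without that library.

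Other voltage-gated genes stood lower in CPM. KCND3, of transient A-type currents, was at 6.19 and 6.25 CPM in NC and 8.64 and 6.73 CPM with the COL8A1 vector, which did not overlap (edgeR log2 fold change 0.31, SE 0.202, adjusted p = 0.852, and 0.11 without COL8A1 replicate 1). KCNH2, known as hERG, had 40 to 89 counts per library, and its relative KCNH3 had 28 to 43. KCND2 had 31 to 76 counts and KCNC4 18 to 56. In all 4 of these the groups overlapped. Below the filter, the modulatory KCNG1 had 8 and 21 counts in NC and 0 and 2 in COL8A1 libraries.

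The inward rectifiers were led by KCNJ2 (ENSG00000123700; chromosome 17, 70168673 to 70180048, plus strand), which holds the membrane near the potassium equilibrium. It was at 12.1 and 13.6 CPM in NC and 16.5 and 19.4 CPM with the COL8A1 vector. Both COL8A1 libraries were above both NC libraries. The means were 12.8 ± 1.12 and 18.0 ± 2.07 CPM (SD, n = 2), a 1.40-fold difference (edgeR log2 fold change 0.48, SE 0.150, adjusted p = 0.747, unadjusted edgeR p 0.0259). Leaving out each library in turn gave log2 fold changes of 0.36 to 0.60. An antisense gene, KCNJ2-AS1, overlaps its exons over 185 bases and had 6 to 18 counts.

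KCNJ10, the main inward rectifier of astrocytes, was at 4.27 and 3.88 CPM in NC and 4.12 and 3.99 CPM with the COL8A1 vector. The groups overlapped and their means were nearly equal (edgeR log2 fold change −0.0067, SE 0.211, adjusted p = 0.996). KCNJ16, which can pair with it, had 2 reads in COL8A1 replicate 1 and 0 in the other libraries. The 10 glioma and astrocyte markers were listed with earlier results of these data known. Of them, 9 had a log2 fold change above 0 (50.2% of all genes did). At an unadjusted edgeR p under 0.05, 4 were higher (40% of the 10, against 3.44% of all genes) and 0 lower. Of the 10, 0 passed the edgeR threshold and 2, SLC1A3 and FABP7, passed with DESeq2 (1.06% of all genes did). Among them SLC1A3, a glutamate transporter, was at 27.2 and 27.2 CPM in NC and 52.7 and 59.2 CPM with the COL8A1 vector (log2 fold change 1.04, SE 0.105), with an edgeR adjusted p of 0.165 and a DESeq2 adjusted p of 2.52e-10. The log2 fold change was 0.51 for FABP7, a fatty acid binding protein of glia (SE 0.110, edgeR adjusted p = 0.580, DESeq2 adjusted p = 0.0461), and 1.63 for GFAP (SE 0.346, edgeR adjusted p = 0.580, DESeq2 adjusted p = 0.176). Whether KCNJ10 and SLC1A3 differ in their response was not tested.

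KCNJ12 had 44 to 60 counts and its close copy KCNJ18 had 0 in every library. The coding sequences of the pair match at 1286 of 1299 bases (99%), with an identical run of 293 bases, so reads within identical stretches cannot be assigned between them and both values are uncertain. KCNJ14 had 47, 97, 47 and 51 counts in NC replicates 1 and 2, then COL8A1 replicates 1 and 2. It overlaps GRWD1, a gene on its own strand with 1657 to 2226 counts, over 350 bases. The G-protein-gated KCNJ3 had 18 to 26 counts in 3 libraries and 54 in COL8A1 replicate 2, with a log2 fold change of 0.71 (SE 0.676, edgeR adjusted p = 0.882) and −0.43 without that library. KCNJ8 and KCNJ11, the pores of ATP-sensitive channels, were below the filter. KCNJ8 had 12 and 4 counts with the COL8A1 vector and 0 in both NC libraries, and KCNJ11 had 3 in NC replicate 2 alone.

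Of the leak channels KCNK2 (ENSG00000082482; chromosome 1, 215005775 to 215237093, plus strand), which stretch, heat and acid open, led in CPM and per kilobase. It was at 8.93 and 9.10 CPM in NC and 5.19 and 12.7 CPM with the COL8A1 vector. The 2 NC libraries were alike, while the COL8A1 libraries lay 2.44-fold apart, on either side of them. The log2 fold change was −0.017 (SE 0.439, edgeR adjusted p = 0.996), −0.80 without COL8A1 replicate 2 and 0.49 without COL8A1 replicate 1. KCNK5, an acid-sensitive channel opened by alkaline conditions, was at 4.72 and 4.0 CPM in NC and 3.21 and 2.70 CPM with the COL8A1 vector. Its groups did not overlap and the COL8A1 values were lower (edgeR log2 fold change −0.56, SE 0.244, adjusted p = 0.826). KCNK1, a weak leak channel, had 12 and 38 counts in NC and 7 and 9 in COL8A1 libraries (edgeR log2 fold change −1.48, SE 0.733, adjusted p = 0.835, and −0.53 without NC replicate 2). KCNK3 had 8 to 14 counts.

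Per kilobase of exon, the order of pore and modulatory subunits over the 4 libraries was KCNN4 at 19.8 CPM, KCNS3 at 5.16, KCNJ2 at 2.76, KCNK2 at 2.29 and KCNQ5 at 1.37. KCNN4 and KCNS3 were apart from each other and from the rest in every library. The ranges of KCNJ2 (2.16 to 3.48), KCNK2 (1.33 to 3.24) and KCNQ5 (0.971 to 2.21) overlapped between neighbours. Within every library KCNQ5 was below both KCNJ2 and KCNK2. KCNK2 was above KCNJ2 in NC replicate 1 and below it in the other libraries, so the order of KCNJ2 and KCNK2 is not resolved. With the longest coding transcript as length these 5 kept the same order. KCNN4 and KCNS3 were also the only KCN genes tested above the median of all tested genes, 3.83 CPM per kilobase.

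Auxiliary subunits included several whose usual pore partners had few reads. KCNE4, a single-span subunit that dampens KCNQ1 and Shaker-type channels, was at 14.2 and 10.3 CPM in NC and 16.6 and 13.6 CPM with the COL8A1 vector. The groups overlapped (edgeR log2 fold change 0.30, SE 0.214, adjusted p = 0.852), and the value ran from 0.087 without NC replicate 2 to 0.55 without NC replicate 1. KCNQ1 had 1 read in all. The cytosolic beta subunits of KCNA channels were detected as well, KCNAB2 at 101 to 163 counts and KCNAB3 at 57 to 68. KCNAB1 had 4 and 20 counts in NC and 35 and 22 in COL8A1 libraries. Its groups did not overlap in CPM (edgeR log2 fold change 1.37, SE 0.781, adjusted p = 0.835). The value was 0.67 without NC replicate 1 and 2.82 without NC replicate 2. Genes on the opposite strand overlap exons of KCNAB1 over 121 bases (10 to 25 counts) and of KCNAB2 over 111 bases (447 to 641 counts).

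The calcium-binding KCNIP proteins accompany the KCND channels. KCNIP3, also a transcriptional repressor known as DREAM, was at 7.04 and 2.08 CPM in NC and 1.26 and 1.62 CPM with the COL8A1 vector. NC replicate 1 stood far above the other 3 libraries. The log2 fold change was −1.66 (SE 0.646, edgeR adjusted p = 0.816, DESeq2 adjusted p = 0.484), the lowest of the 33, and it was −0.53 without that library. KCNIP4 had 46 and 41 counts in NC and 29 and 13 in COL8A1 libraries (edgeR log2 fold change −0.96, SE 0.478, adjusted p = 0.835). It was −0.57 without COL8A1 replicate 2 and −1.53 without COL8A1 replicate 1. KCNIP2 had 26 to 40 counts with overlapping groups.

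KCNE1, which slows KCNQ1 in the heart, had 18 and 8 counts in NC and 35 and 24 in COL8A1 libraries (edgeR log2 fold change 1.26, SE 0.60, adjusted p = 0.835). Its groups did not overlap, and the value was 0.74 without NC replicate 2 and 2.03 without NC replicate 1. Of the other BK beta subunits KCNMB2 had 14 to 26 counts and KCNMB1 6 to 20. KCNMB3 had 204 to 256 counts, but its exons overlap those of PIK3CA, on the opposite strand with 2851 to 3491 counts, over 3403 bases. They also overlap LRRFIP1P1, on the same strand with 17 to 224 counts, over 864 bases. The level of KCNMB3 is therefore uncertain.

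**Figure D3:**
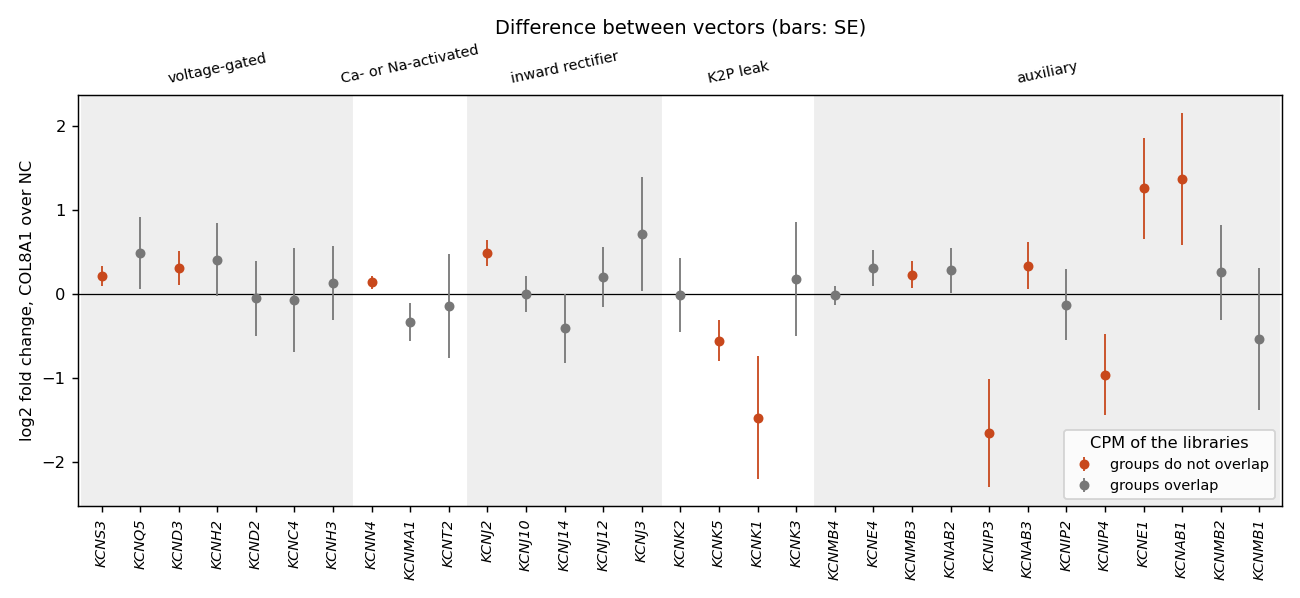
Log2 fold change (COL8A1 over NC) of 31 of the 33 KCN genes tested, by family and in order of mean CPM within it; bars are the SE, and orange marks genes whose 2 groups did not overlap in CPM. Values beyond 1 in size (KCNIP3, KCNK1, KCNE1, KCNAB1) all belong to genes at a mean of 3.0 CPM or less and have wide bars, while KCNN4 and KCNMB4 lie near 0 with narrow bars.

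Replicates of several channel genes differed more than those of most genes. Of the 33 KCN genes, 12 (36.4%) had replicates over 2-fold apart in at least 1 group, against 16.6% of all genes tested. That contrast is not matched for level. Only 11 of the 33 KCN genes were at a mean of 5 CPM or more, against 11277 of all 17030 genes tested. Among genes at a mean of 5 CPM or more the share was 2 of 11 KCN genes, KCNK2 and KCNQ5, against 4.54% of all. In both it was the COL8A1 pair that differed, with replicate 2 the higher. This split was noticed after the values were seen and was not tested.

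Potassium transport also rests on genes without a KCN symbol, and a list of 51 pumps, cotransporters, volume-regulated channels and channel partners was followed. Of the 33 tested, 27 had a log2 fold change above 0 and 6 below, with a median of 0.13, and 0 passed the edgeR threshold (0.0117% of all genes did). At an unadjusted edgeR p under 0.05, 3 were higher and 2 lower, 15.2% of the 33 against 6.07% of all genes. The list was chosen with earlier results of these data known, so this contrast is a description and no test of an excess. With DESeq2 2 passed (1.06% of all genes did), both lower.

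LRRC8E, a subunit of the volume-regulated anion channel, had 105 and 72 counts in NC and 6 and 11 in COL8A1 libraries. Its log2 fold change was −3.25 (SE 0.526, edgeR adjusted p = 0.457, DESeq2 adjusted p = 0.000501). LRRC8A, the subunit that every such channel needs, had 3074 to 3268 counts per library and a log2 fold change of 0.076 (SE 0.105, edgeR adjusted p = 0.920). A gene on the opposite strand overlaps exons of LRRC8E over 3218 bases, with 3 to 12 counts.

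SLC12A7, which carries potassium and chloride out of the cell together, was at 779 and 819 CPM in NC and 960 and 871 CPM with the COL8A1 vector (edgeR log2 fold change 0.20, SE 0.070, adjusted p = 0.804, and 0.12 without COL8A1 replicate 1). FXYD3, a small pump regulator, was at 8.28 and 3.97 CPM in NC and 13.7 and 11.4 CPM with the COL8A1 vector (edgeR log2 fold change 1.04, SE 0.383, adjusted p = 0.808). It was 0.60 without NC replicate 2 and 1.66 without NC replicate 1. REST, a repressor of neuronal genes including channels, was at 95.1 to 96.6 CPM in NC and 96.9 and 104 CPM with the COL8A1 vector, with an edgeR adjusted p of 0.894. The sulfonylurea receptor ABCC8 and the KCND partners DPP6 and DPP10 had 0 reads in all 4 libraries.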

How the data were processed

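Each of the 4 deposited columns holds the authors' read counts per gene for 1 library, not normalized. The submitters' processing notes list HISAT2 2.2.1, Trim Galore 0.6.9, featureCounts (as version 0.3) and hg38. No source used here gives the parameters, the strand setting or the annotation release. Groups and replicate numbers came from the sample titles. A line that names no gene (a protein domain record, no counts) was left out.

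The whole table was fitted with edgeR 4.0.16 under R 4.3.3 (filterByExpr, TMM, quasi-likelihood F-test, group as the only term), which left 17030 genes. The Benjamini-Hochberg adjustment was made over these. The SE is the absolute log2 fold change over the square root of F. CPM used TMM-scaled library sizes. Exon lengths, overlaps, positions and coding sequences came from GENCODE release 29 (GRCh38, the assembly of hg38), which listed all 95 members but may differ from the annotation counted. Alternatives were other scalings and filters, DESeq2 1.42.0, limma-voom (limma 3.58.1), a block for the replicate number, robust shrinkage and each library left out. Fits were checked on simulated counts.

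Full values were given for the 8 with the highest mean CPM, for those with an unadjusted p under 0.05 and for those without overlap and a log2 fold change of at least 0.5 in size. Partner genes were named at an unadjusted p under 0.05 or as the 2 highest. Untested members were named by rule at 20 counts or more. KCNMA1, KCND3, KCNJ10, KCNJ3 and the statistics of other genes outside this rule, and the other untested or partner genes named, were chosen after their values were seen. Members and lists were chosen with earlier results of these data known. The results of some genes that these rules name are not reported here, though the counts include them.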

Additional observations from a re-analysis of the deposited data

How the results depend on the processing

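With 2 libraries a group the fit had 2 residual degrees of freedom, so an adjusted p above 0.05 does not show that a channel was equal between the vectors, and the 28 members with reads below the filter had at most 21 counts in any library. No KCN gene passed the adjusted threshold in any of the 13 alternatives run. The count at an unadjusted p under 0.05 was 7 without a low-count filter, 4 of them genes that the filter removes. It was 1 to 6 with a library left out (1 without NC replicate 1, 6 without COL8A1 replicate 1). The gene without NC replicate 1 was KCNH5, which was not tested in the main fit. The share of all genes with an unadjusted p under 0.05 was not taken for the fits with a library left out. Whether 6 is more than the background is therefore not known. Over all genes the calls numbered 17 without a filter, 180 in DESeq2, 14 with robust shrinkage and 0 to 3 with a library left out. With the replicate number as a block the fit called 1 gene. The correlation of same-numbered libraries was −0.036 over all genes tested. A correlation over all genes cannot show whether some genes follow the replicate number, and this was not tested. DESeq2 called 2 partner genes. The median of the KCN genes tested was −0.019 without a filter, where more genes enter, and 0.13 with a filter of 1 CPM in 2 libraries. It was 0.13 in limma-voom and 0.17 with the replicate block. With a library left out it was −0.085 to 0.13, over the KCN genes that then passed the filter. In leave-one-out fits the log2 fold change turned sign for KCNK2 (−0.80 to 0.49), KCNMB4 (−0.062 to 0.024), KCNQ5 (−0.22 to 0.96), KCNJ10 (−0.077 to 0.061), KCNJ3 (−0.43 to 1.35) and LRRC8A (−0.050 to 0.19). The cause of these shifts was not tested. Of 28 genes followed, COL8A1 included, the other fold changes kept their sign in every alternative that gave a value.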
